A study of Mus musculus with 20 samples.

Results

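The Ifit family, the interferon-induced genes for proteins with tetratricopeptide repeats, was followed in bone marrow-derived macrophages (BMDMs) given airway fluid fractions. The members were the 6 genes named Ifit1, Ifit1bl1, Ifit1bl2, Ifit2, Ifit3 and Ifit3b, taken by symbol from the 78409 genes of the expression table, of which 34373 had a count in at least 1 of the 20 libraries. All 20 libraries were from wild-type BMDMs, grown from the marrow of female C57BL/6J mice and treated at day 7 of culture in medium without serum. Each of 5 groups held 4 libraries: PBS, RNY1+/+ EVFx, RNY1-/- EVFx, RNY1+/+ ProteinFx and RNY1-/- ProteinFx. EVFx and ProteinFx are the vesicle-enriched and the protein-enriched pools that size exclusion chromatography gave from bronchoalveolar lavage fluid (BALF) of mice with ovalbumin-induced airway inflammation, and +/+ or -/- is the genotype of the fluid's donor for RNY1, a small noncoding Y RNA. The knockout was thus in the donor of the fluid and never in the macrophages. EVFx was given at 35000000 particles per µL and ProteinFx at 0.75 µg of protein per µL, so the genotypes were matched in dose within a fraction, and the fractions were not matched with each other. All fractions had been stored for 5 days at 4°C before use, and no such storage is listed for PBS. The labels give no age and no duration of treatment. The library names share 1 prefix, which need not be a batch of culture, treatment or sequencing. The labels also leave unsaid whether a group's 4 libraries stem from separate wells, animals or pools of fluid. The p-values therefore measure the spread between these libraries, which may be technical.

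IFIT proteins are among the most strongly induced products of type I and type III interferon signalling, in which the receptors activate a complex of transcription factors that binds the interferon-stimulated response element (ISRE) in target promoters. Irf3 can also switch on several Ifit genes directly, without interferon. Ifit1 binds RNA whose cap lacks ribose methylation, as on many viral transcripts, and keeps it from being translated; Ifit2 binds RNA rich in A and U and is linked to apoptosis and to antiviral defence in the nervous system; Ifit3 is a partner of the other IFIT proteins, and Ifit3b is its close copy. Ifit1bl1 and Ifit1bl2 are relatives of Ifit1 whose functions are less well known. In macrophages the family serves as a standard readout of interferon and of nucleic acid sensing.

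The 6 members lay side by side on chromosome 19, over 99.3 kb at chr19:34550694-34650009 in GRCm38. Ifit2, Ifit3, Ifit3b and Ifit1 were annotated on the plus strand, and Ifit1bl1 and Ifit1bl2 on the minus strand. Ifit1 and Ifit1bl2 stood head to head, and their promoter windows shared 245 bases of genome. The nearest protein-coding genes outside the cluster were Ch25h and Lipa on one side and Slc16a12 and Pank1 on the other.

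The promoters were compared because the members moved together, as described further on. RefSeq gave 9 windows of 300 bases for the 6 members (250 before and 50 after a start of transcription, GRCm38.p6). Below are 4 of them, 5′ to 3′ on the gene's own strand, with capitals on each match to the ISRE core GAAANNGAA on either strand; neighbouring matches can overlap. Ifit1 and Ifit3 each had 3 matches, Ifit1bl1 had 2, and Ifit2 is shown as the member with none.
Ifit1, chr19:34640639-34640938, plus strand: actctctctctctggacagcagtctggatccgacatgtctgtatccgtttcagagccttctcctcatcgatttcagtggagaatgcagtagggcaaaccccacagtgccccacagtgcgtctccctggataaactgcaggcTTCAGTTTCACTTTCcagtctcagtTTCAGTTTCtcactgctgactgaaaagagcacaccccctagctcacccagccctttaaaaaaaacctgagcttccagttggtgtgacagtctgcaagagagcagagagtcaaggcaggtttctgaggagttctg
Ifit1bl1, chr19:34601919-34602218, minus strand: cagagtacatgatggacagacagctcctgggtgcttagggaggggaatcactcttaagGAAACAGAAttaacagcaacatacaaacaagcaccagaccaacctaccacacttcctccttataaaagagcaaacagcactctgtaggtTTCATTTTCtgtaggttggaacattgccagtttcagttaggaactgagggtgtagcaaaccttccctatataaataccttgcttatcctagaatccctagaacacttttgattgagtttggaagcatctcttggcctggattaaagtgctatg
Ifit2, chr19:34550444-34550743, plus strand: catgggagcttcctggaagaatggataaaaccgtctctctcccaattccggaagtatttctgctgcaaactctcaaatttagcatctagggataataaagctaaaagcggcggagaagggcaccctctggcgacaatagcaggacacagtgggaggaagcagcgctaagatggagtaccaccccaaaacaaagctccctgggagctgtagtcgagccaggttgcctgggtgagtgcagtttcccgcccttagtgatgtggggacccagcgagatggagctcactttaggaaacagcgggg
Ifit3, chr19:34583279-34583578, plus strand: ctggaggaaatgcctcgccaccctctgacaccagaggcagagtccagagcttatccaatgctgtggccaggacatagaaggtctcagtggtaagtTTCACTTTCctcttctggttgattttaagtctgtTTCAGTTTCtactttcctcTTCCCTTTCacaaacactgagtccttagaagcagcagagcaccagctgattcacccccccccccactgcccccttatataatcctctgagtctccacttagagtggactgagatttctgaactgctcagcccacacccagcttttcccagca

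The ISRE core was present in 6 of the 9 windows of the family, against 8.56% of the 32851 promoter windows of the same length in the RefSeq table. Each of those 6 windows held 2 or more matches, as did 0.624% of all windows. The Ifit3b window had 3 matches in the same arrangement as that of Ifit3, to which it was identical at 259 of 260 aligned bases (99.6%). The upstream window of Ifit1bl2 had 3 matches, which are the same bases as those of Ifit1 read from the other strand. Both windows of Ifit2 and the downstream window of Ifit1bl2 had none. The GAS motif TTCNNNGAA, searched the same way, was found in 1 of the 9 windows, that of Ifit2 shown above, and in 8.3% of all windows; that match overlapped no ISRE core. A match describes the letters of these windows and was not tested for binding.

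**Figure D1:**
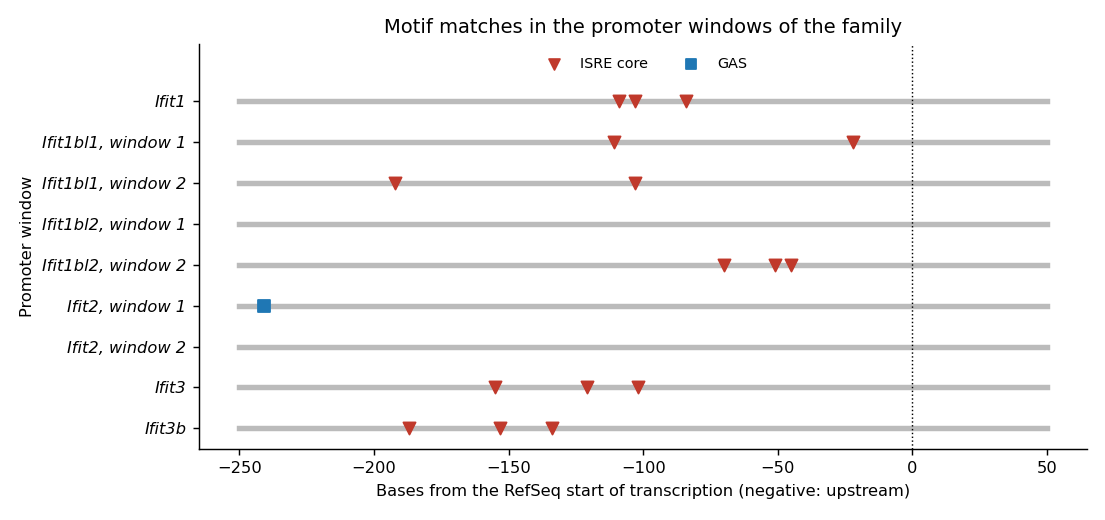
Matches to the ISRE core (red triangles) and the GAS motif (blue square) in the 9 promoter windows of the Ifit family, by distance in bases from the RefSeq start of transcription; grey lines mark the windows. Matches to the ISRE core lie upstream of the start in 6 windows, and the windows of Ifit2 hold 1 GAS match and no ISRE core.

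The libraries held 2510005 to 8277366 counts (median 5456425), counted from transcript 3′ ends after removal of duplicates by molecular identifier. The macrophage markers Adgre1, Csf1r, Cd68, Lyz2, Mertk, Itgam and Fcgr1 were detected in every group, with a summed level of 8450 to 12850 CPM (counts scaled to a common library total, as deposited) per library, while the conventional dendritic cell list summed to at most 1.26 CPM and the airway epithelium list to at most 3.30 CPM. Neutrophil markers summed to 143 to 354 CPM and their ranges overlapped between PBS and both ProteinFx groups, with both EVFx groups below PBS. Most of this sum came from S100a8 and S100a9, with Ly6g at no more than 1 count in any library. The plasmacytoid dendritic cell list summed to 428 to 908 CPM, almost all of it from Bst2, itself induced by interferon, and Tcf4, with Siglech, its defining gene, at a group mean of no more than 0.484 CPM. The eosinophil list summed to 7.17 to 13.5 CPM in PBS, 0.801 to 2.46 CPM with EVFx and 12.3 to 21.1 CPM with ProteinFx, with its defining gene Epx at 0 in every library. Lists for T cells, B cells and fibroblasts summed to at most 9.02, 3.78 and 39.2 CPM. In bulk RNA, fewer cells of a type and less RNA per cell cannot be told apart, and the part of other cell types in the results was not tested. Rny1 itself was listed at no more than 1.5 counts in any library, and these poly(A) libraries do not check the donors' genotype.

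All 6 members were low in PBS and higher in each of the 16 treated libraries than in any PBS library. Of all genes tested, 15.1% lay above PBS without overlap in RNY1+/+ EVFx, 15.8% in RNY1-/- EVFx, 15.7% in RNY1+/+ ProteinFx and 13.8% in RNY1-/- ProteinFx. Together they took 0.0246% of all counts in PBS on average, 0.364% in RNY1+/+ EVFx, 0.48% in RNY1-/- EVFx, 0.654% in RNY1+/+ ProteinFx and 0.382% in RNY1-/- ProteinFx. With edgeR's quasi-likelihood test, a member was called when its Benjamini-Hochberg adjusted p was under 0.05 and its absolute log2 fold change above 1. The test covered 5 members, since Ifit1bl2 did not reach a mean of 3 CPM. All 5 were called higher in RNY1+/+ EVFx, where 8.24% of all genes tested were, and the same was true of RNY1-/- EVFx (9.02% of genes), RNY1+/+ ProteinFx (8.96%) and RNY1-/- ProteinFx (6.31%). The median log2 fold change of the 5 members in these comparisons was 3.60, 4.34, 5.03 and 4.22, while the median of all genes tested was -0.03 in each. The 4 comparisons share the PBS libraries.

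**Figure D2:**
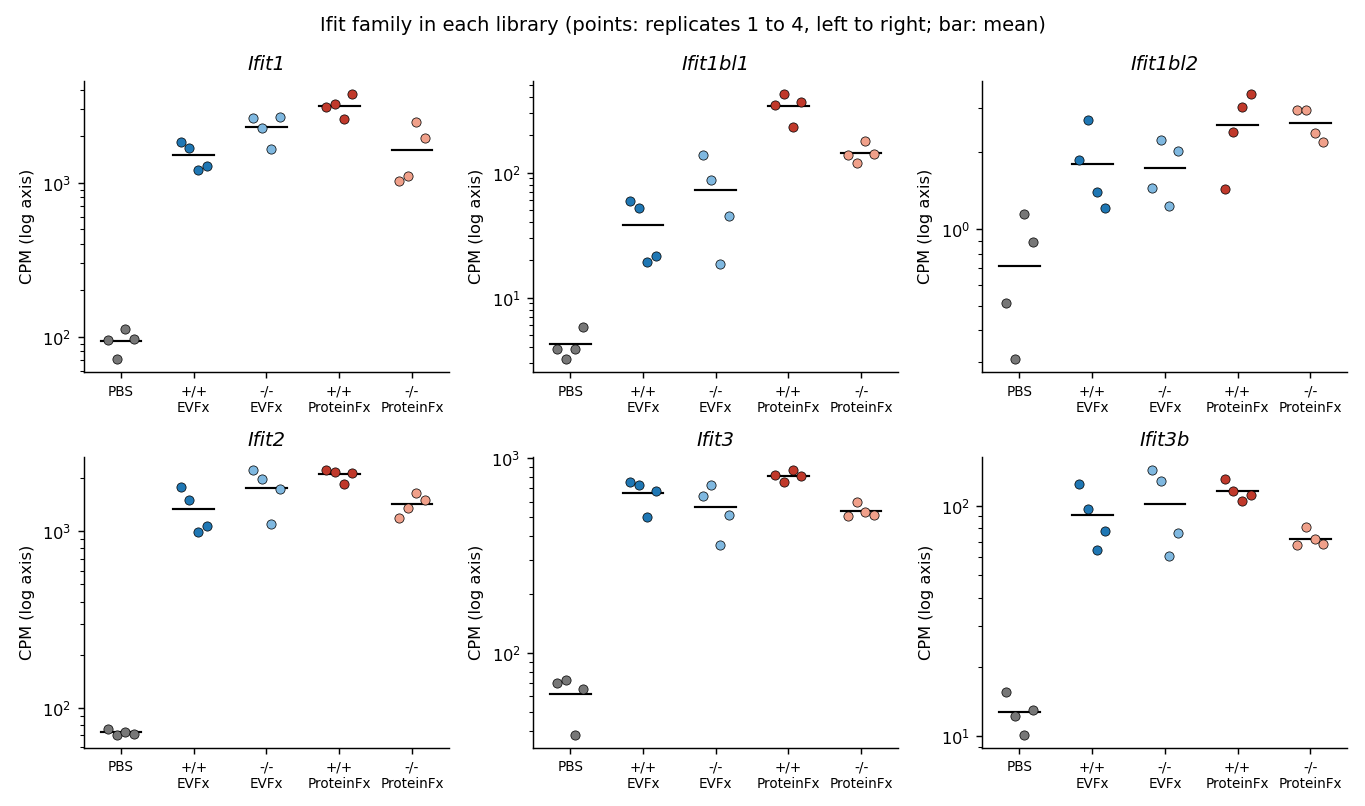
CPM (log axis) of the 6 members in each of the 20 libraries by treatment; points are replicates 1 to 4 from left to right and bars are means of 4. In each panel the 4 PBS libraries lie below the 16 treated ones, and the RNY1-/- ProteinFx libraries lie below the RNY1+/+ ProteinFx libraries for all members except Ifit1bl2.

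Ifit1, the cap sensor, stood at 94.3, 71.7, 112 and 96.6 CPM in PBS replicates 1 to 4 (mean 93.5 ± 16.5 SD, n = 4). It reached 1837, 1685, 1211 and 1273 CPM in RNY1+/+ EVFx and 2634, 2248, 1653 and 2659 CPM in RNY1-/- EVFx. The ranges of the EVFx groups overlapped. In RNY1+/+ ProteinFx Ifit1 was at 3104, 3232, 2573 and 3745 CPM, and in RNY1-/- ProteinFx at 1028, 1108, 2464 and 1941 CPM. The ProteinFx groups did not overlap, and the RNY1-/- libraries fell into a low pair (replicates 1 and 2) and a high pair (replicates 3 and 4). Against PBS the log2 fold change of Ifit1 was 4.18 (SE 0.19, adjusted p = 4.1e-08, edgeR) with RNY1+/+ EVFx and 5.25 (SE 0.19, adjusted p = 2.3e-09) with RNY1+/+ ProteinFx. It was 4.87 (SE 0.21) with RNY1-/- EVFx and 4.22 (SE 0.33) with RNY1-/- ProteinFx.

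Ifit1bl1, a relative of Ifit1, differed most between the fractions. Its PBS level was 3.89, 3.24, 3.89 and 5.87 CPM, from 17 to 33 counts. It was 59.3, 52.4, 19.2 and 21.5 CPM in RNY1+/+ EVFx and 138, 87.1, 18.7 and 45.1 CPM in RNY1-/- EVFx, so that replicates 1 and 2 exceeded 3 and 4 in both groups. In RNY1+/+ ProteinFx it was 347, 423, 231 and 369 CPM, and in RNY1-/- ProteinFx 138, 120, 180 and 140 CPM. Neither ProteinFx group overlapped with RNY1+/+ EVFx, and the RNY1-/- EVFx group overlapped with RNY1-/- ProteinFx through its replicate 1. The log2 fold changes of Ifit1bl1 against PBS were 3.35 (SE 0.42) with RNY1+/+ EVFx, 4.34 (SE 0.56) with RNY1-/- EVFx, 6.50 (SE 0.25) with RNY1+/+ ProteinFx and 5.16 (SE 0.23) with RNY1-/- ProteinFx. The value for RNY1+/+ ProteinFx is a 90.6-fold rise.

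Ifit1bl2, the other relative, was near the limit of detection, with 2 to 21.5 counts per library. Its levels were 0.512, 0.309, 1.14 and 0.890 CPM in PBS, and replicates 1 and 2 of them rested on 2.5 and 2 counts, under the floor of 3 counts. The group means of the treated libraries were 1.79 ± 0.66 in RNY1+/+ EVFx, 1.73 ± 0.472 in RNY1-/- EVFx, 2.56 ± 0.851 in RNY1+/+ ProteinFx and 2.61 ± 0.374 CPM in RNY1-/- ProteinFx (SD, n = 4 each). The treated groups overlapped with each other, and none overlapped with PBS. With no filter on low counts, Ifit1bl2 gave log2 fold changes against PBS of 1.68 (SE 0.44), 1.62 (SE 0.48), 2.12 (SE 0.46) and 2.06 (SE 0.47) in the same order of groups. These are fitted values at few counts, and no difference in Ifit1bl2 between the treated groups could be detected at this depth.

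Ifit2 had the tightest PBS group of the family, at 75.6, 70.4, 73.0 and 71.4 CPM. It was at 1793, 1507, 995 and 1071 CPM in RNY1+/+ EVFx and 2222, 1991, 1099 and 1750 CPM in RNY1-/- EVFx. In RNY1+/+ ProteinFx it was at 2231, 2177, 1856 and 2149 CPM, above the 1187, 1361, 1655 and 1501 CPM of RNY1-/- ProteinFx. The ProteinFx groups did not overlap, and the EVFx groups did. The log2 fold changes of Ifit2 against PBS were 4.39 (SE 0.20) with RNY1+/+ EVFx, 4.85 (SE 0.21) with RNY1-/- EVFx, 5.03 (SE 0.12) with RNY1+/+ ProteinFx and 4.37 (SE 0.16) with RNY1-/- ProteinFx. Ifit2, the member with no ISRE core in its windows, had a larger log2 fold change than Ifit3 and Ifit3b in all 4 comparisons. Its windows lie at the 5′ end of its annotated span of 25.7 kb, and the rest of that span was not searched for motifs.

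Ifit3, which partners with other IFIT proteins, was at 70.4, 73.1, 38.2 and 65.6 CPM in PBS, with replicate 3 the lowest. It was at 756, 728, 501 and 677 CPM in RNY1+/+ EVFx, 643, 726, 359 and 513 CPM in RNY1-/- EVFx, 818, 752, 871 and 807 CPM in RNY1+/+ ProteinFx and 507, 597, 533 and 514 CPM in RNY1-/- ProteinFx. The lowest treated group was thus RNY1-/- ProteinFx, whose 4 libraries lay below all 4 of RNY1+/+ ProteinFx. Its near copy Ifit3b was at 15.6, 12.3, 10.2 and 12.99 CPM in PBS. It was at 124, 97.4, 64.5 and 78.2 CPM in RNY1+/+ EVFx, 143, 129, 60.7 and 76.5 CPM in RNY1-/- EVFx, 131, 116, 105 and 111 CPM in RNY1+/+ ProteinFx and 67.4, 80.8, 72.1 and 68.2 CPM in RNY1-/- ProteinFx. Again the ProteinFx groups did not overlap, while the EVFx groups overlapped throughout. Against PBS, Ifit3 had log2 fold changes of 3.60 (SE 0.21), 3.41 (SE 0.25), 3.88 (SE 0.19) and 3.18 (SE 0.20) with RNY1+/+ EVFx, RNY1-/- EVFx, RNY1+/+ ProteinFx and RNY1-/- ProteinFx. In the same order, Ifit3b had log2 fold changes of 3.01 (SE 0.22), 3.24 (SE 0.27), 3.35 (SE 0.15) and 2.56 (SE 0.15).

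**Figure D3:**
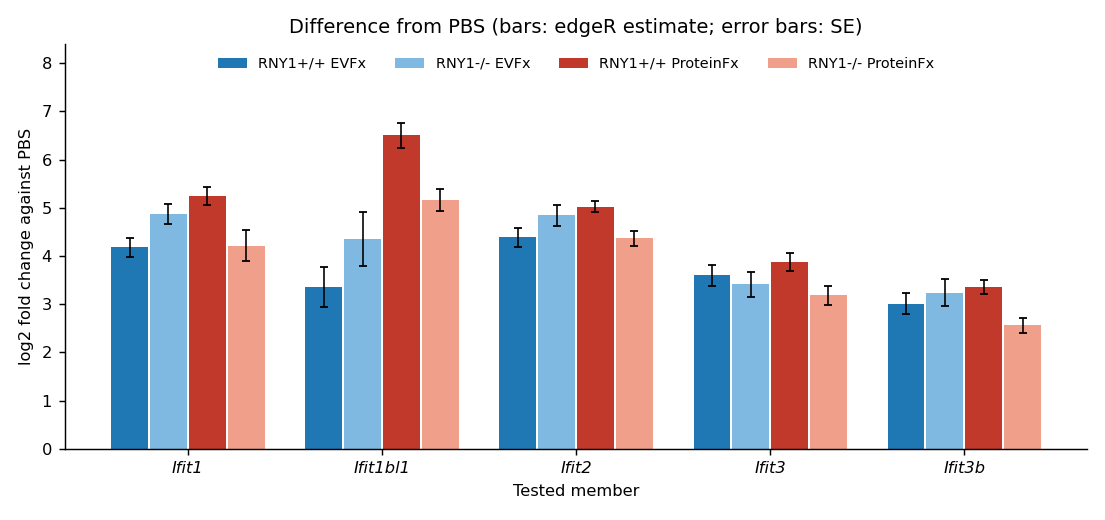
Log2 fold change against PBS (y axis) of the 5 tested members with each of the 4 fractions; bars are edgeR estimates from 4 against 4 libraries and error bars are SE. The bars lie between 2.56 (Ifit3b, RNY1-/- ProteinFx) and 6.50 (Ifit1bl1, RNY1+/+ ProteinFx), and for each member the RNY1+/+ ProteinFx bar is the tallest.

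Ordered by mean level, PBS was the lowest group for all 6 members and did not overlap with the next group in any of them. Among the treated groups, neighbouring levels overlapped in every case except for Ifit1bl1, whose RNY1-/- ProteinFx libraries (120 to 180 CPM) all lay below its RNY1+/+ ProteinFx libraries (231 to 423 CPM). RNY1+/+ ProteinFx was the highest group for Ifit1, Ifit1bl1, Ifit2, Ifit3 and Ifit3b, and for Ifit1bl2 the ProteinFx groups were level at 2.56 and 2.61 CPM.

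Near-identical sequence limits how far Ifit3 and Ifit3b can be told apart. Their annotated transcripts were identical at 98.0% of aligned bases, and 51.2% of the stretches of 50 bases in Ifit3 also occurred in another gene, namely Ifit3b. In the last 500 bases, where 3′-end libraries draw most of their reads, 14.9% of such stretches of Ifit3 were shared with Ifit3b; none of Ifit3b were shared with Ifit3, and 1.77% were shared with genes outside the family. The counting split reads that map to several places, which left a fractional count in 12 of 20 libraries for Ifit3 and 15 for Ifit3b. Ifit1 had a fractional count in 16 of 20 libraries. Of its stretches of 50 bases, 7.13% were shared with Ifit1bl1 or Ifit1bl2 over the whole transcript and 0% in the last 500 bases. Ifit1bl1 and Ifit1bl2 were 91.6% identical, and 9.09% of the last 500 bases of Ifit1bl1 was shared with Ifit1bl2. Ifit2 shared no stretch of 50 bases with another gene. With the near-identical pairs summed, the summed feature of Ifit3 and Ifit3b was called against PBS in each of the 4 comparisons. It was not called in the test of whether the genotype effect differed between the fractions, which is given further on.

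Ratios within a library showed which members rose unequally. Ifit1bl1 stood at 3.48% to 6.08% of the CPM of Ifit1 in PBS, at 1.59% to 3.23% in RNY1+/+ EVFx and at 1.13% to 5.26% in RNY1-/- EVFx. With ProteinFx it stood at 8.99% to 13.1% in RNY1+/+ and 7.20% to 13.4% in RNY1-/-. All 8 ProteinFx libraries thus had a higher ratio of Ifit1bl1 to Ifit1 than all 12 others. Ifit3b was at 16.8% to 26.7% of Ifit3 in PBS and at 11.5% to 16.4% in RNY1+/+ EVFx, 14.9% to 22.3% in RNY1-/- EVFx, 12.1% to 16% in RNY1+/+ ProteinFx and 13.3% to 13.5% in RNY1-/- ProteinFx. The ratio of Ifit3b to Ifit3 was lower than in PBS on average in all 4 treated groups, without overlap for RNY1+/+ EVFx, RNY1+/+ ProteinFx and RNY1-/- ProteinFx. These ratios depend on how shared reads were split and were not tested.

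**Figure D4:**
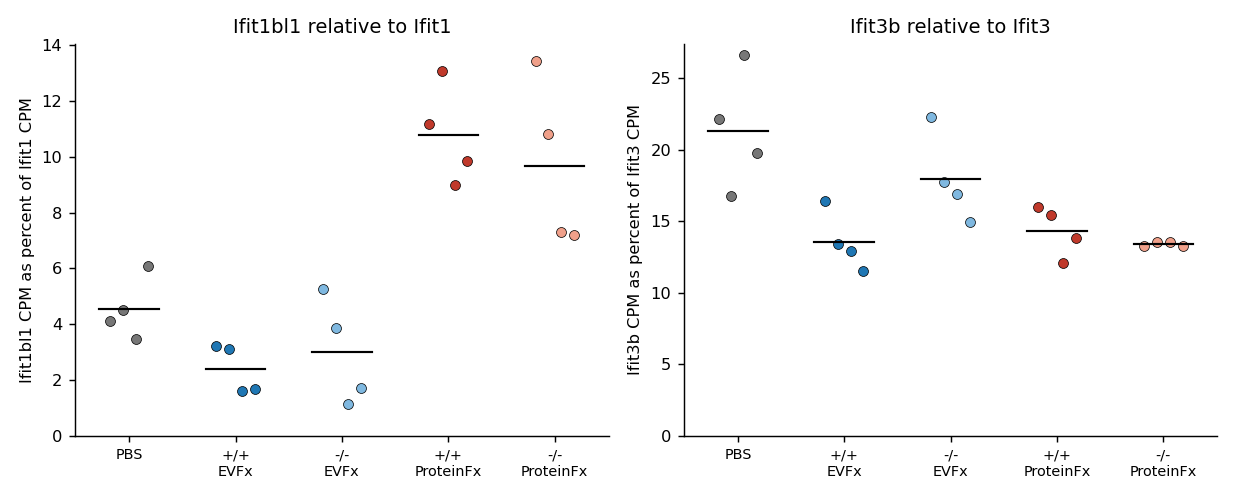
CPM of Ifit1bl1 as a percent of Ifit1 (left) and of Ifit3b as a percent of Ifit3 (right) in each library by treatment; points are replicates 1 to 4 from left to right and bars are means of 4. The 8 ProteinFx libraries lie at 7.20% or above on the left, and all other libraries lie at 6.08% or below.

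The genotype of the donor was compared within each fraction at matched dose. In EVFx, 0 of the 5 members were called higher or lower with RNY1-/- against RNY1+/+; 0.378% of genes were called higher. By adjusted p alone, Ifit1 was higher with RNY1-/- EVFx, as were 25.5% of all genes tested, so this count is no result about the members. Ifit1 differed by a log2 fold change of 0.69 (SE 0.16, adjusted p = 0.0040, edgeR), from a mean of 1502 ± 307 to 2299 ± 470 CPM (SD, n = 4 each). The other members had log2 fold changes of 0.47 (SE 0.21, adjusted p = 0.077) for Ifit2, 1.01 (SE 0.46, adjusted p = 0.084) for Ifit1bl1, 0.24 (SE 0.24, adjusted p = 0.41) for Ifit3b and -0.18 (SE 0.18, adjusted p = 0.41) for Ifit3. At an unadjusted p under 0.05, Ifit1, Ifit2 and Ifit1bl1 passed, as did 58.4% of all genes in either direction, and DESeq2 also called 0 members. Without RNY1-/- EVFx replicate 3, the library with the least Ifit1bl1 of its group, Ifit1bl1 was called at a log2 fold change of 1.30 (adjusted p = 0.0117).

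In ProteinFx the 5 tested members were lower with RNY1-/- fluid, while Ifit1bl2, near the limit of detection, was level. With RNY1-/- ProteinFx, Ifit1 and Ifit1bl1 were called lower than with RNY1+/+ ProteinFx, 2 of 5 members against 1.17% of genes; DESeq2 and scaling by total counts each called Ifit1bl1 alone, with Ifit1 at -1.02 (adjusted p = 0.0519) and -0.953. By adjusted p alone all 5 were lower, as were 3.37% of genes. The log2 fold change was -1.03 for Ifit1 (SE 0.26, adjusted p = 0.035, edgeR), -1.34 for Ifit1bl1 (SE 0.18, adjusted p = 0.0011), -0.77 for Ifit3b (SE 0.11, adjusted p = 0.0012), -0.68 for Ifit3 (SE 0.10, adjusted p = 0.0019) and -0.64 for Ifit2 (SE 0.13, adjusted p = 0.0135). Levels of Ifit1bl1 were thus 2.52-fold and those of Ifit2 1.56-fold lower with the RNY1-/- fluid. The ProteinFx groups did not overlap for these 5 members, and 4.96% of all genes lay lower with RNY1-/- ProteinFx without overlap. The median over the 5 members was -0.77, and over all genes tested it was 0.02.

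The pairs of RNY1-/- ProteinFx libraries bear on these values to different degrees. Without replicates 1 and 2, the log2 fold change of Ifit1 became -0.56 (adjusted p = 0.037) and Ifit1 was no longer called; that of Ifit2 became -0.45 (adjusted p = 0.026) and that of Ifit1bl1 -1.14 (adjusted p = 0.0038). Without replicates 3 and 4, Ifit1 was at -1.70, Ifit2 at -0.86 and Ifit1bl1 at -1.55. The pairs were described by the level of Ifit1, so the direction of its 2 shifts follows from the split and is no result. Replicates 3 and 4 were also the shallowest of their group, at 2510005 and 3855450 counts, against 5293171 and 7149366 for replicates 1 and 2. Ifit3 and Ifit3b were as low in either pair, at -0.67 and -0.77 without replicates 1 and 2 and at -0.69 and -0.78 without replicates 3 and 4. The call on Ifit1 was also lost when RNY1+/+ ProteinFx replicate 1, 2 or 4 (log2 fold change -1.04, -1.02 and -0.92, adjusted p = 0.0776, 0.0805 and 0.14) or RNY1-/- ProteinFx replicate 1 or 2 (-0.842 and -0.862, adjusted p = 0.0766 and 0.0796) was left out, and the call on Ifit1bl1 was kept in every such fit.

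Whether the effect of genotype differed between the fractions was tested as an interaction over the 16 treated libraries. It was called, at an adjusted p under 0.05, for 4 of the 5 members, each time with the RNY1-/- value relatively lower in ProteinFx, where 16.2% of all genes were called in that direction. The log2 difference between the 2 genotype effects was -1.71 for Ifit1 (SE 0.35, adjusted p = 0.0038, edgeR), -2.34 for Ifit1bl1 (SE 0.57, adjusted p = 0.0079), -1.11 for Ifit2 (SE 0.28, adjusted p = 0.0085) and -1.01 for Ifit3b (SE 0.30, adjusted p = 0.0176). For Ifit3 it was -0.50 (SE 0.22, adjusted p = 0.084). With the counts of Ifit3 and Ifit3b summed, the summed feature was not called, so the call on Ifit3b holds only with these genes counted apart. Without RNY1-/- ProteinFx replicates 1 and 2 the count fell to 1, Ifit1, at -1.24 (adjusted p = 0.0217), while Ifit1bl1 was at -2.14 (adjusted p = 0.0671), Ifit2 at -0.905 (adjusted p = 0.0807) and Ifit3b at -0.996 (adjusted p = 0.103). Without RNY1-/- EVFx replicate 3, Ifit3 was called as well, at -0.66 (adjusted p = 0.0116).

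**Figure D5:**
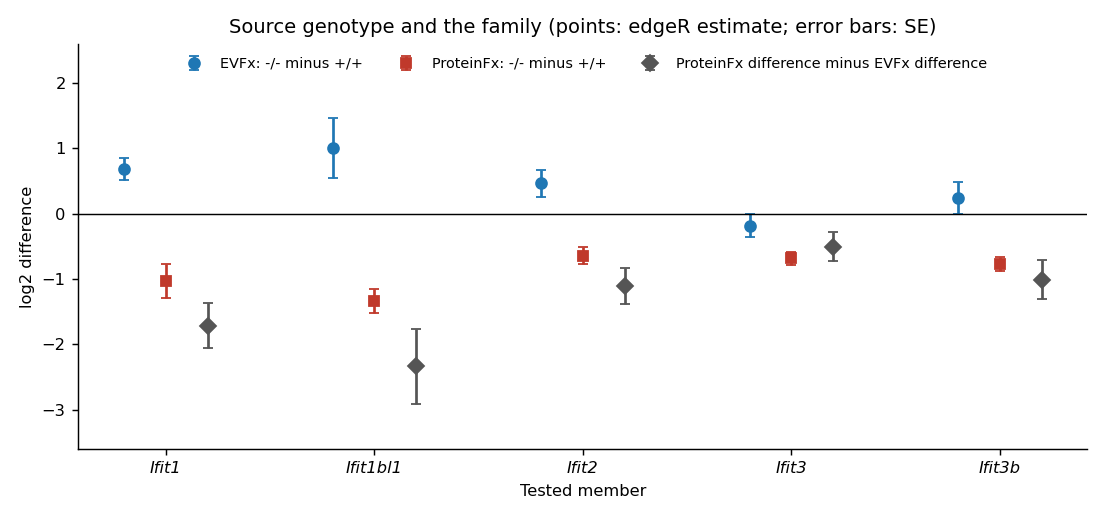
Log2 difference (y axis) between RNY1-/- and RNY1+/+ fluid in EVFx (blue circles) and ProteinFx (red squares), and the difference between these 2 effects (grey diamonds), for the 5 tested members; points are edgeR estimates and error bars are SE. The red squares all lie below 0, from -0.64 to -1.34, while the blue circles run from -0.18 to 1.01.

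Within a genotype the fractions were also set side by side, although their doses are in different units. With RNY1+/+ fluid, Ifit1bl1 and Ifit1 were called higher in ProteinFx than in EVFx, 2 of 5 members against 6.71% of genes, at log2 fold changes of 3.15 (SE 0.29, adjusted p = 4.4e-07, edgeR) and 1.08 (SE 0.14, adjusted p = 1.6e-05). By adjusted p alone 4 members were higher, as were 31.1% of genes, with Ifit2 at 0.65 (SE 0.15, adjusted p = 0.0020) and Ifit3 at 0.29 (SE 0.11, adjusted p = 0.037); Ifit3b was at 0.34 (SE 0.15, adjusted p = 0.059). The levels of Ifit1, Ifit1bl1 and Ifit2 did not overlap between these groups, and 27.1% of all genes lay higher in ProteinFx without overlap. The log2 fold change of Ifit1 is close to the limit of 1 and fell under it, to 0.984, 0.998 and 0.976, without RNY1+/+ EVFx replicate 3, RNY1+/+ EVFx replicate 4 or RNY1+/+ ProteinFx replicate 4.

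With RNY1-/- fluid, 0 of 5 members were called between the fractions, where 9.03% of genes were called higher or lower. By adjusted p alone 1 member, Ifit3b, was lower in ProteinFx, as were 14.1% of genes, at a log2 fold change of -0.67 (SE 0.22, adjusted p = 0.038, edgeR). Ifit1 was at -0.64 (SE 0.28, adjusted p = 0.106), Ifit2 at -0.46 (SE 0.20, adjusted p = 0.098), Ifit3 at -0.22 (SE 0.17, adjusted p = 0.39) and Ifit1bl1 at 0.82 (SE 0.41, adjusted p = 0.16). At an unadjusted p under 0.05, Ifit1, Ifit2 and Ifit3b passed, as did 38.8% of all genes in either direction, and DESeq2 called 0 members. Same-numbered libraries of these groups deviated together, and with the replicate number as a block Ifit1bl1 was called at 1.01 (SE 0.37, adjusted p = 0.049), 1 of 5 members. Ifit1bl1 was also called, at 1.34 (adjusted p = 0.0201), without RNY1-/- EVFx replicate 1, and Ifit1, at -1.32 (adjusted p = 0.00011), without RNY1-/- ProteinFx replicates 3 and 4. That fit leaves out the pair with more Ifit1, so the direction of the shift in Ifit1 follows from the split.

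As log2 CPM over the 20 libraries, the 10 pairs of the 5 tested members had Pearson's r of 0.858 to 0.989, a value set largely by the distance of PBS from the rest. Over the 16 treated libraries alone r was 0.47 to 0.899, highest for Ifit1 with Ifit2 and lowest for Ifit1bl1 with Ifit3b. The non-members whose pattern was most like the mean of the tested members over the 20 libraries, among genes of at least 10 CPM, were Ifi209, Phf11d, Ifi44, Ifi206 and Rnf213, with r from 0.994 to 0.996 over all libraries and from 0.928 to 0.978 over the treated ones. These correlations are descriptions over libraries that share treatments and depth.

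The ligands that can induce the family were at or near 0. Of 21 interferon genes, 18 had no count in any library, among them all 13 numbered interferon alpha genes, which allows up to 3 counts per library, or 0.362 to 1.195 CPM depending on depth. Ifnb1, the interferon beta gene, had 0 counts in all 4 PBS libraries and a count in 13 of the 16 treated ones, with a maximum of 2 in RNY1+/+ EVFx, 3 in RNY1-/- EVFx, 5 in RNY1+/+ ProteinFx and 2 in RNY1-/- ProteinFx. Ifng and Ifnk never exceeded 1 count. Of these genes none could be tested, and a single time of sampling does not show their course.

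Of the 60 genes of the pathway list (ligands, receptors, transducers, inducing factors, sensors, feedback inhibitors, cap methyltransferases and eIF3 subunits), 38 could be tested with RNY1+/+ EVFx and 16 were called higher than in PBS. With RNY1-/- EVFx 13 of 38 were called higher, with RNY1+/+ ProteinFx 17 of 39, and with RNY1-/- ProteinFx 14 of 38, beside the shares of all genes given for the family. In the same order 0, 2, 1 and 1 genes of the list were called lower. The share of all genes called lower than PBS is not given, so these lower counts are no result about the list. The median log2 fold change of the genes of the list tested was 0.80, 0.60, 0.63 and 0.48 in that order. Among the transducers, Stat2 rose by a log2 fold change of 2.23 (SE 0.16) with RNY1+/+ EVFx and 2.36 (SE 0.11) with RNY1+/+ ProteinFx. Irf9, which binds DNA in complex with Stat2, was not called, at 0.88 (SE 0.13) and 0.55 (SE 0.14). The receptor chain Ifnar1 was at 0.38 (SE 0.11) and 0.92 (SE 0.11) and its partner Ifnar2 at 0.28 (SE 0.11) and 0.19 (SE 0.13), all under the limit of 1.

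Irf7, which amplifies interferon production, rose by 2.36 (SE 0.26) with RNY1+/+ EVFx and 2.49 (SE 0.24) with RNY1+/+ ProteinFx, whereas Irf3, its constitutive relative, was at -0.14 (SE 0.14) and -0.72 (SE 0.15). Irf8, a macrophage lineage factor, was also below PBS, at -0.97 (SE 0.18, not called) and -1.10 (SE 0.16, called). The RNA sensors Rigi and Ifih1 rose, by 2.55 (SE 0.13) and 2.25 (SE 0.15) with RNY1+/+ EVFx and by 2.82 (SE 0.11) and 3.16 (SE 0.12) with RNY1+/+ ProteinFx. Sting1, the adaptor of DNA sensing, was called lower with RNY1-/- EVFx at -1.30 (SE 0.24) and higher with RNY1-/- ProteinFx at 1.07 (SE 0.26). The cap methyltransferases, which make the marks that IFIT proteins read, had 0 of 3 members called in any of the 4 comparisons with PBS. Of the 4 eIF3 subunits, parts of the initiation factor that IFIT proteins can bind, only Eif3b with RNY1-/- ProteinFx was called, lower, at -1.01 (SE 0.25). With RNY1+/+ ProteinFx, Rnmt was at 0.67 (SE 0.16), Cmtr1 at 0.47 (SE 0.20) and Cmtr2 at -0.54 (SE 0.24).

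Between the genotypes, 0 of 39 genes of the list were called higher and 2 lower in EVFx, Socs3 and Ticam1, and 1 was called higher and 2 lower in ProteinFx. Of all genes, 1.98% were called lower in EVFx and 0.659% higher in ProteinFx, the other shares being those given for the family. Socs3, a feedback inhibitor of cytokine receptors, was lower with RNY1-/- fluid in both fractions, at -1.07 (SE 0.12) in EVFx and -1.55 (SE 0.23) in ProteinFx, and Ticam1, an adaptor of Toll-like receptors, was at -1.03 (SE 0.17) in EVFx and 0.25 (SE 0.24, not called) in ProteinFx. Sting1 was the gene called higher with RNY1-/- ProteinFx, at 1.04 (SE 0.25). Usp18, which silences the type I interferon receptor, was called lower with RNY1-/- ProteinFx at -1.09 (SE 0.13, adjusted p = 3.5e-04, edgeR), from 176 ± 9.61 to 87.9 ± 18.1 CPM. Socs1, another feedback inhibitor, was at -0.99 (SE 0.19, adjusted p = 0.0089), just inside the limit of 1 and so not called. In ProteinFx, Ifih1 was at -0.58 (SE 0.15, adjusted p = 0.036) and Rigi at -0.57 (SE 0.10, adjusted p = 0.0057), while Stat2 was at -0.32 (SE 0.13, adjusted p = 0.20) and Irf7 at -0.29 (SE 0.13, adjusted p = 0.22). In EVFx, mean levels with RNY1+/+ and RNY1-/- fluid were 232 and 181 CPM for Stat2 and 327 and 246 CPM for Irf7. They were 212 and 202 CPM for Rigi and 179 and 231 CPM for Ifih1, and the ranges overlapped for each of these genes. The median log2 fold change of the 39 genes was -0.19 in EVFx and -0.17 in ProteinFx. The interaction was called for 6 of the 39 genes above 0 and for 11 below 0, where 16.8% and 16.2% of all genes were, among the latter Ifih1 at -1.03 (SE 0.22, adjusted p = 0.0046) and Usp18 at -0.82 (SE 0.23, adjusted p = 0.0148).

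Of the 4 genes beside the cluster, Lipa and Pank1 could be tested, and neither was called higher than PBS. Lipa codes for lysosomal acid lipase and is the nearest protein-coding gene outside the cluster on the side of Ifit2. It was lower with RNY1+/+ ProteinFx at a log2 fold change of -1.73 (SE 0.13) and with RNY1-/- ProteinFx at -1.26 (SE 0.12), both called. With RNY1+/+ and RNY1-/- EVFx it was at -0.32 (SE 0.10) and -0.20 (SE 0.10). Pank1, a pantothenate kinase on the other side, was at -0.93 (SE 0.16), -0.56 (SE 0.19), -0.67 (SE 0.18) and -0.53 (SE 0.18) with RNY1+/+ EVFx, RNY1-/- EVFx, RNY1+/+ ProteinFx and RNY1-/- ProteinFx, none of them called. Ch25h, itself inducible by interferon, was too low to test, at 0.839 ± 0.736 CPM in PBS and 4.63 ± 3.18 CPM in RNY1+/+ ProteinFx, and Slc16a12 had no more than 1 count in any library.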

How the data were processed

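The samples were grouped by treatment and replicate from their labels. The authors deposited expected counts per gene, not normalized, which are fractional where a read maps to several places, and CPM, scaled to each library's total; levels are printed in the deposited CPM. Per the labels and the study's methods, 3′-end poly(A) libraries with molecular identifiers were filtered with fastp 0.24.0, aligned with STAR 2.7.11 to GRCm39 (build from the submitters' processing notes), freed of duplicates and counted by strand on exons and 3′ UTRs with featureCounts of Subread 2.1.1, multimapping reads being split. Fractions were found for 23.6% to 26.3% of detected genes and can blur near-identical members.

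Counts were rounded, kept by filterByExpr and a mean of 3 CPM over the libraries compared, given TMM factors and compared by edgeR 4.0.16 in R 4.3.3 (quasi-likelihood F test from glmQLFit), p-values being adjusted by Benjamini-Hochberg across the whole table: 8 comparisons of 4 against 4 libraries and 1 interaction over 16. The scripts were tested on simulated data. A count of 0 was taken to allow up to 3 counts, which covers counting error only. The alternatives were DESeq2 1.42.0, other scalings, filters and roundings, thinning, summed members, trends of length and GC, left-out libraries and a replicate block. Deviations of same-numbered libraries correlated above 0.1 in every pair in 2 of 8 comparisons, RNY1-/- EVFx against PBS and RNY1-/- ProteinFx against RNY1-/- EVFx; the block is printed where it changed a call.

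The members, the pathway and marker lists and the tests were chosen with earlier results of these data known. Named genes were the 6 members, fixed genes of the pathway list and those whose call went against their sublist, 2 protein-coding neighbours on each side, and the 5 genes with the highest Pearson's r to the mean log2 CPM of the tested members. Gene positions and transcripts were read from GENCODE models on GRCm38, promoters from RefSeq (GRCm38.p6); the files' own build, GRCm39, was not used for coordinates.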

Additional observations from a re-analysis of the deposited data

Results flagged for a closer look

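Of the 30 combinations of member and group, 0 held a library that stood apart from the other 3 by Dixon's criterion, which chance alone passes in about 5% of groups. The effect of RNY1 genotype differed between fractions for 4 of the 5 tested members, where 16.2% of all genes were called below 0 and 16.8% above 0. Without RNY1-/- ProteinFx replicates 1 and 2 the count fell to 1. The log2 difference of the effects, ProteinFx less EVFx, was -1.71 for Ifit1, -2.34 for Ifit1bl1, -1.11 for Ifit2 and -1.01 for Ifit3b, each at an adjusted p under 0.05 in edgeR's interaction test over 16 libraries. In these 4 members the level with RNY1-/- fluid was above that with RNY1+/+ fluid on average in EVFx and below it in ProteinFx.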

How the results depend on the processing

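All tested members were called higher than PBS under every alternative run, 5 of 5 in most, 6 of 6 with no filter and 4 of 4 where the near-identical members were summed. None of the 5 tested members changed sign in any comparison; Ifit1bl2, fitted only under 2 looser filters, lay at -0.016 and 0.015 between the EVFx genotypes. For RNY1-/- against RNY1+/+ ProteinFx, 2 members were called, but 1 with DESeq2, with total counts in place of TMM or without RNY1-/- ProteinFx replicates 1 and 2, and 5 whatever the fold change; leaving out 1 library gave 1 to 2. For RNY1+/+ ProteinFx against RNY1+/+ EVFx, 2 became 1 with trends of length and GC removed, with or without the replicate block, and 4 whatever the fold change; leaving out 1 library gave 1 to 2. For RNY1-/- against RNY1+/+ EVFx, 0 became 1 whatever the fold change, and 0 to 1 with 1 library left out. For RNY1-/- ProteinFx against RNY1-/- EVFx, 0 became 1 with the replicate block, without RNY1-/- ProteinFx replicates 3 and 4 and whatever the fold change, and 0 to 1 with 1 library left out. The interaction count of 4 became 1 without RNY1-/- ProteinFx replicates 1 and 2, and was 4 with the replicate block. It was 5, Ifit3 included, with trends of length and GC removed (with or without the block) and without RNY1-/- EVFx replicate 3. With the near-identical members summed, the feature of Ifit3 and Ifit3b was not called in the interaction. The causes were not tested. The replicate block changed no other count. Same-numbered libraries correlated best with each other in 13 of 32 pairs (r from -0.367 to 0.641). Depth limits Ifit1bl2, the interferon genes and Ch25h.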
